A study of Mus musculus with 11 samples.

Results

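Nr1d2, Npy2r, Avpr1a and Cartpt are a clock repressor gene, the genes of 2 neuropeptide receptors and a neuropeptide gene. They were followed here in methylated DNA captured from the suprachiasmatic nucleus (SCN), the hypothalamic master clock. The windows described are all those that the 4 deposited tables assign to one of these genes by name: 5 windows of 500 bp, out of 1181 different listed windows. The tables list windows selected by the authors for a difference between cycle lengths, so the values of these 5 windows chose them and are given as a description, with no test.

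The study kept wild-type C57BL/6Cr1 mice, 6 weeks old at the start, on light:dark cycles of 22 h, 24 h or 26 h (T22, T24 and T26) for 6 weeks and then recorded their wheel running for 3 days in constant darkness. Ventral and dorsal SCN were cut out of a vibratome slice at circadian time 4, and the labels give the age as postnatal day 90. The labels hold 2 samples for each combination of part and cycle length, except 1 for dorsal 24 h, but each table has a single column per cycle length, so no spread between mice can be seen. Whether the DNA of several mice was pooled is not stated, and captured DNA holds no marker expression against which the tissue label could be checked. In a dissected piece of tissue, methylation per cell and the mix of cells cannot be told apart.

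In the clock, CLOCK and BMAL1 drive the Per and Cry genes, whose products block them. NR1D2 (REV-ERB beta) acts in a second loop, where with its relative NR1D1 it represses the gene of BMAL1. SCN cells are coupled by neuropeptides: AVPR1A is the V1a receptor for vasopressin, a main peptide of SCN neurons, and NPY2R is a receptor for neuropeptide Y, which a nerve tract from the thalamus releases in the SCN. Cartpt encodes the precursor of the CART peptides, which are best known in feeding circuits of the hypothalamus. DNA methylation in mammals lies mostly on CpG dinucleotides, and in MeDIP-seq an antibody captures the methylated fragments, so a window gains reads with methylation, CpG density and the number of DNA copies that map to it.

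The 5 windows fell into 2 kinds of sequence. The windows named after Cartpt lay just upstream of the gene in a tandem repeat, which is shown first because it holds both Cartpt differences. The unit is 26 bp long with 1 CpG, marked in capitals in every sequence here. The lines below give the unit, the 150 bases at the gene-side edge of the array in the window listed for ventral SCN (chr13:100671501-100671650, mm9, plus strand), and the last 130 bases of the window listed for dorsal SCN (chr13:100672871-100673000), in which some units differ by a base.
Cartpt unit: aaacactgagttaccctCGccacaat
Cartpt ventral window: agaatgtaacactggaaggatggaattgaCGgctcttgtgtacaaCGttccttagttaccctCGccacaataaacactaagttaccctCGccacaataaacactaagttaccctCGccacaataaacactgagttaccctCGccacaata
Cartpt dorsal window: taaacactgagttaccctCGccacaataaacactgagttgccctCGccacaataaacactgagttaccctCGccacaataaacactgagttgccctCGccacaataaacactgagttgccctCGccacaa

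The other 3 windows lay far from the genes they are named after, in sequence with many copies in the genome. The central 300 bases of the windows nearest Nr1d2 (chr14:18977601-18977900) and Npy2r (chr3:82398101-82398400) and the last 300 bases of that nearest Avpr1a (chr10:121744701-121745000) are given from mm9, plus strand, to show how CpG-rich or CpG-poor each was.
Nr1d2 window: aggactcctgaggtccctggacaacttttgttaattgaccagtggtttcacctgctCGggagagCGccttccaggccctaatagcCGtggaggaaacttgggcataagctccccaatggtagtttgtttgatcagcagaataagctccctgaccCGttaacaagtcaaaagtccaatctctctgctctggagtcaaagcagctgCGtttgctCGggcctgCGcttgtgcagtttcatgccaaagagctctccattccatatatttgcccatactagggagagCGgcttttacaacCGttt
Npy2r window: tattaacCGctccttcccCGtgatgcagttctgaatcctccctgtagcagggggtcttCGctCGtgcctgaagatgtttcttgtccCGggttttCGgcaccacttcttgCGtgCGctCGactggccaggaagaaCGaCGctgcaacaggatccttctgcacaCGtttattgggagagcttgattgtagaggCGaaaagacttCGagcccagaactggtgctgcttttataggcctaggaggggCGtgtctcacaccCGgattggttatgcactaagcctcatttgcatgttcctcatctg
Avpr1a window: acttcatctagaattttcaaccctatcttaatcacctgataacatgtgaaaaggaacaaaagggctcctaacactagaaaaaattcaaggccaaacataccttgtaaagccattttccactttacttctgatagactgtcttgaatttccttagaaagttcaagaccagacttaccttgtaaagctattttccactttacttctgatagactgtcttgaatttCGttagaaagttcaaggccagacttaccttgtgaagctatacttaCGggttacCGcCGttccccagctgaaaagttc

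Cartpt windows carried less captured DNA after 22 h cycles than after 24 h cycles in both parts of the SCN. In ventral SCN the window at chr13:100671501-100672000 had 19.6 RPKM at 22 h, against 56.2 RPKM at 24 h (80 and 147 recovered reads). RPKM divides the reads by window length and by the total reads of a column, and the reads behind each value could be recovered from it because every window has the same length. The level was thus 2.87-fold lower at 22 h, with an exact 95% interval of 2.17 to 3.82 that covers counting error only. In dorsal SCN the window at chr13:100672501-100673000 had 30.1 RPKM at 22 h, against 69.4 RPKM at 24 h (86 and 159 reads), which was 2.31-fold lower at 22 h (1.77 to 3.04). In both parts the fewer reads stood in the deeper column.

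The authors' scaling gave a smaller difference, and it did not multiply all ratios by a common factor. In the ventral 22 h list it raised the Cartpt ratio of 22 h over 24 h but lowered the Npy2r one, from 6.88 to 6.40. In the authors' deposited table the log2 fold change, written as 24 h over 22 h, was 1.06 for the ventral window (unadjusted p = 2.93e-07) and 0.94 for the dorsal one (5.77e-07); these p-values compare columns, not groups of mice. The ventral ratio of 22 h over 24 h was 0.48 on that scaling and 0.348 in RPKM. The dorsal ratio was 0.520 on the authors' scaling and 0.433 in RPKM, so on the authors' scaling the dorsal window was less than 2-fold lower.

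**Figure D1:**
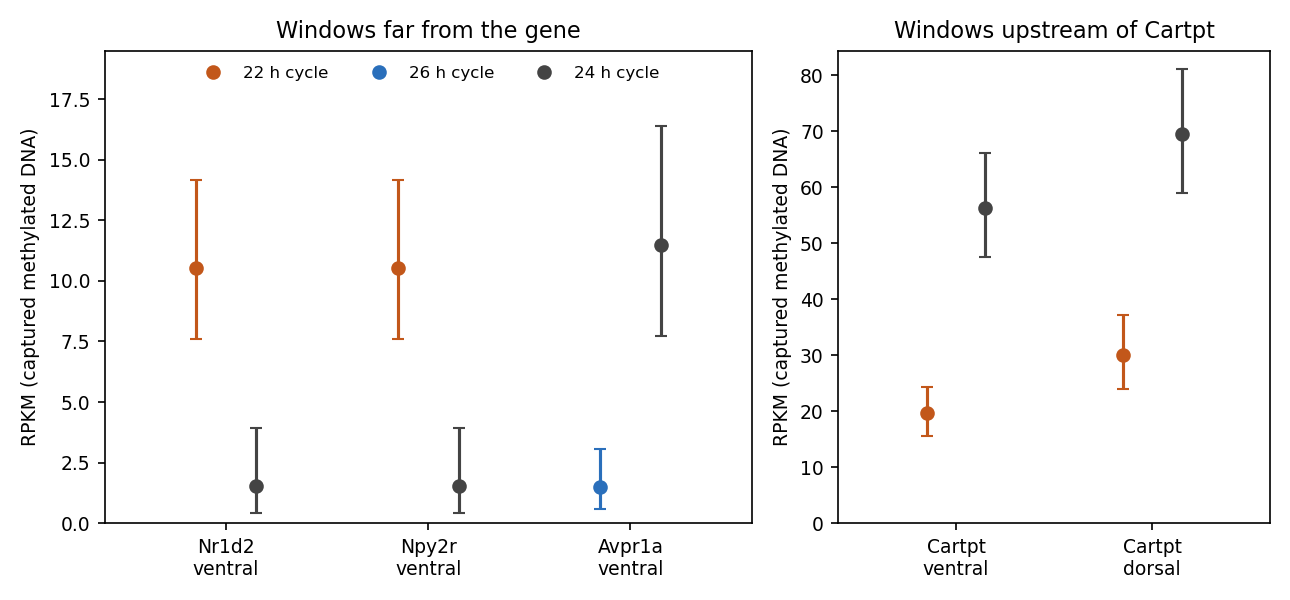
Captured methylated DNA in RPKM (linear axis from 0) at the 5 windows, left of each pair at 22 h (orange) or 26 h (blue) and right of it at 24 h (grey), with exact 95% Poisson intervals that cover counting error only. The Nr1d2 and Npy2r windows stood at 10.5 RPKM at 22 h against 1.53 at 24 h, while the Avpr1a and both Cartpt windows were lower at 26 h or 22 h than at 24 h.

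The Cartpt windows were next set beside the other windows of their lists. A single window counts here as lower or higher when its RPKM differed at least 2-fold. In the ventral 22 h list 24.3% of the 812 windows were lower by that rule, 197 in all, and the Cartpt window was one of them. Its fold was among the smallest of the 197 (rank 189), while its RPKM ranked 89 of all 812 at 22 h and 4 at 24 h. In the dorsal 22 h list 3.05% of the 131 windows were lower, that is 4 windows, nearest Trpc7, Ntan1, Itgad and Cartpt. Trpc7 rested on 0.35 against 8.73 RPKM, Ntan1 on 13.98 against 38.41 and Itgad on 18.2 against 45.8 (22 h against 24 h in each case). Cartpt had the highest level of the 4 at both cycle lengths. In the whole dorsal list its RPKM ranked 29 of 131 at 22 h and 8 at 24 h, and the 5 other windows lower at 22 h, all nearest Mir101c, stood higher, at 399.1 to 443.8 RPKM at 22 h and 454.3 to 512.8 RPKM at 24 h. These shares describe lists that the contrast itself selected, and the rest of the genome was not analysed here.

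Position was closer to the gene than for nearly all other windows. The authors' tables put the ventral window 1113 bp and the dorsal window 2113 bp upstream of the Cartpt start site. In the ventral list 2 of 811 windows with a distance lay nearer to a start site, and the median distance was 77.8 kb. In the dorsal list 2 of 131 lay nearer, and the median was 44.3 kb. Both windows fell outside the gene body (chr13:100668439-100670638, minus strand, GENCODE M1), in no annotated gene or exon. The next protein-coding start site on the far side was that of Mccc2, an enzyme gene of leucine breakdown, 70.0 kb from the ventral window.

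The tandem array ran over 1908 bp (chr13:100671550-100673457), from 912 to 2819 bp upstream of the start site. It held about 73.4 units by length, 50 of them letter for letter, and 73 CpGs. Each 500-bp window that it covers therefore held 18 to 20 CpGs, with 19 in both listed windows. The array covers 4 windows of the grid, of which 90.2% of the ventral and 100% of the dorsal listed window lay in repeat. The window between them, with 20 CpGs, and the last window, with 18, were in none of the 4 lists. The listed windows of the 2 parts are thus different stretches of the same array, 1000 bp apart.

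**Figure D2:**
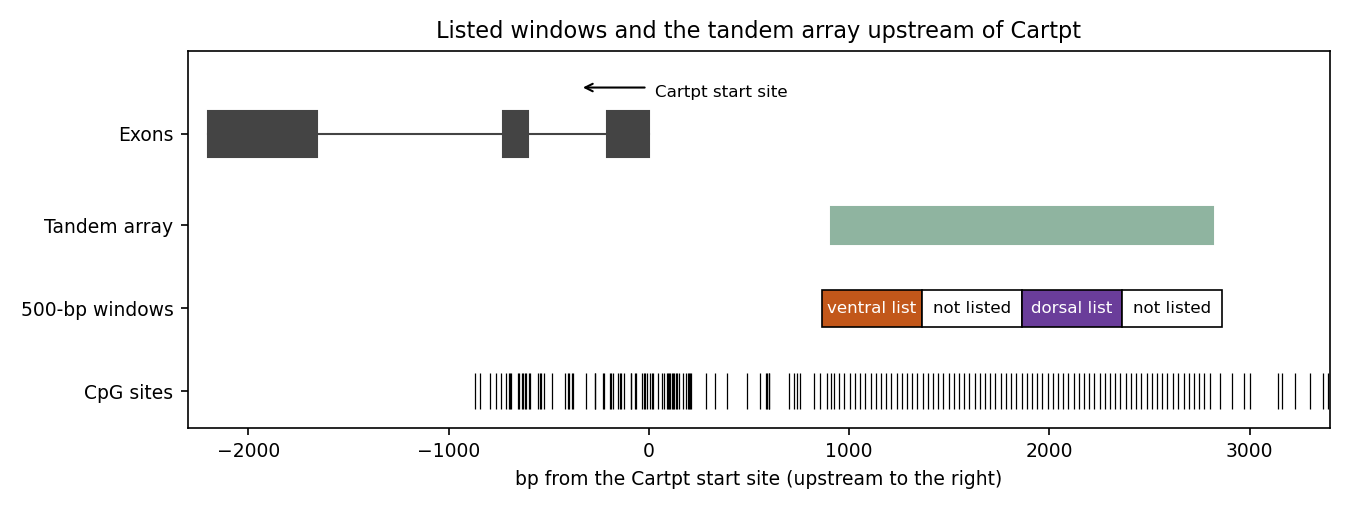
Map of the Cartpt gene and its upstream side in bp from the start site, with exons, the tandem array, the 500-bp windows it covers and each CpG as a tick. The windows listed for ventral (orange) and dorsal SCN (purple) lie in the array, which starts 912 bp and ends 2819 bp upstream, and the other 2 windows were not listed.

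The array has no copy elsewhere in mm9. The unit placed 2 times in a row was found 48 times in the array and 0 times in the rest of the genome on either strand, and each listed window aligned to 1 place only. Within the array, the median 31-base word occurred 50 times, and 12.8% of the words in the ventral and 1.06% in the dorsal window occurred once. A read of 31 bases from the array can therefore be placed at Cartpt but mostly not at a single window of it. With words of 50 bases, 22.4% in the ventral and 5.32% in the dorsal window occurred once, and longer reads were not assessed. The read length, and how the authors placed such reads, are not given in the sources used here.

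The promoter next to the array is a different kind of sequence. The 300 bases around the start site (chr13:100670589-100670888, minus strand; taken from RefSeq on GRCm38.p6 and found letter for letter in mm9) held 26 CpGs with no such spacing, and no window over them was listed.
Cartpt promoter: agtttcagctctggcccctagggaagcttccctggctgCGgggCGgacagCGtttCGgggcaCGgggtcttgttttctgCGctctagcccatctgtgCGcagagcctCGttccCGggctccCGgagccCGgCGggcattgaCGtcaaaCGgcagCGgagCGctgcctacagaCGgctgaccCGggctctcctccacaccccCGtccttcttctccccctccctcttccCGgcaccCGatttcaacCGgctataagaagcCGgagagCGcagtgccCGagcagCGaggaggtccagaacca

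Cartpt was also the 1 gene that was lower at 22 h in both parts. The ventral and dorsal 22 h lists named 11 genes in common, which is 1.72% of the 639 genes of the ventral list and 12.6% of the 87 of the dorsal list, and no window was in both. Of these 11 genes, 8 had only higher windows in both parts, 2 (2610316D01Rik and AA545190) were lower in ventral and higher in dorsal SCN, and Cartpt was lower in both. The Cartpt windows were also the closest pair, since the nearest windows of the other 10 genes lay 8000 to 659000 bp apart. Whether the ventral and dorsal folds differed was not tested.

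Windows dense in short tandem repeats, with at least 30% of their 15-base words recurring within 100 bp, made up 95 of the 812 ventral windows. Of these, 82 were lower at 22 h, the Cartpt window among them. In the dorsal list 29 of 131 windows were of this kind and 3 were lower, namely those nearest Ntan1, Itgad and Cartpt. Over all 131 dorsal windows, 9 had a lower RPKM at 22 h than at 24 h, 4 of them at least 2-fold. By value, the windows most like the ventral Cartpt window (distance on the log2(RPKM + 0.5) scale over the 2 columns) were nearest Atp1b1, with 14.4 RPKM at 22 h against 39.0 at 24 h, and 2 windows nearest 1700049E22Rik, with 13.5 against 36.3 and 11.99 against 34.79. For the dorsal Cartpt window they were nearest Itgad, Gad2 and Ntan1, at larger distances of 0.93 to 1.37 log2 units, and the Gad2 window went the other way with 58.7 against 39.3 RPKM.

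**Figure D3:**
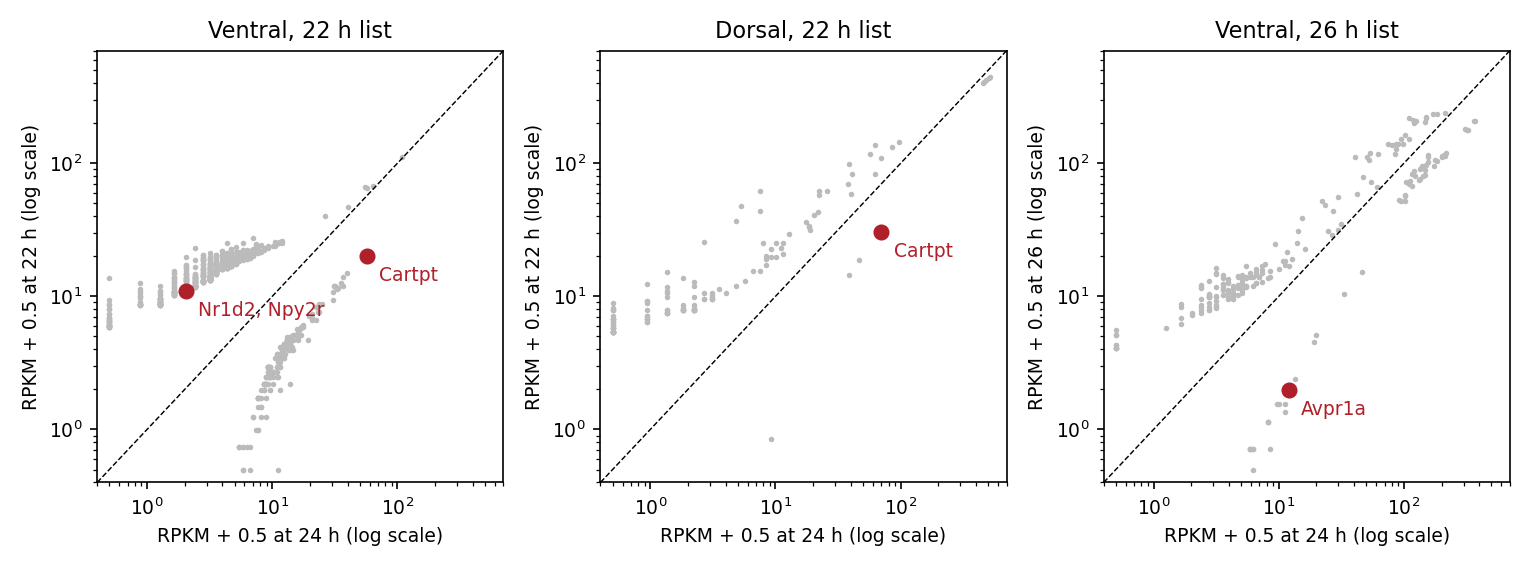
RPKM + 0.5 at 22 h or 26 h against 24 h on log axes for every window of 3 lists (grey points; dashed line, equal values), with the windows nearest the 4 genes in red. The Nr1d2 and Npy2r windows coincide above the line, the ventral Cartpt window lies at the high end of the windows well below the line, and the dorsal Cartpt and the Avpr1a windows are below it.

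Nr1d2 and Npy2r windows carried more captured DNA after 22 h than after 24 h cycles in ventral SCN, at low levels. The Nr1d2 window at chr14:18977501-18978000 had 10.5 RPKM at 22 h, against 1.53 RPKM at 24 h, from 43 and 4 reads. The Npy2r window at chr3:82398001-82398500 had exactly the same reads in both columns. Each was 6.88-fold higher at 22 h, with an interval of 2.5 to 26.4, which is wide because of the 4 reads at 24 h. The authors' deposited table gives both windows a log2 fold change of -2.68 for 24 h over 22 h and an unadjusted p of 7.56e-06. In this list 75.0% of the windows were at least 2-fold higher at 22 h, and the median ratio of 22 h over 24 h was 4.76 over all 812.

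The equality of the 2 windows was not particular to these genes. In the list 6 other windows shared the reads of each, so that 7 windows in all had 43 and 4. Why they were equal was not tested. Besides Nr1d2 and Npy2r these were nearest 1700034H15Rik, Slitrk1, which encodes a neuronal membrane protein, Wdr3, Hnrnpd, an RNA-binding protein gene, and Gm5934. The Nr1d2 and Npy2r windows were not alike in sequence: no stretch of 100 bp or more at 80% identity joined them. Likeness among all 7 windows was not set out.

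Neither window lay near the body of its gene. The authors' distance was 93.9 kb downstream of the Nr1d2 start site, and the window stood 58.6 kb beyond the far end of the gene (chr14:19036568-19071641, minus strand). GENCODE M1 also holds a shorter Nr1d2 transcript, whose start site was 66.4 kb away. The flanking coding gene on the other side was Thrb, a thyroid hormone receptor gene, with a start site at 144 kb. The Npy2r window lay 46.2 kb upstream of the Npy2r start site (gene body chr3:82342305-82352008, minus strand), and the next coding start site was that of Rbm46, an RNA-binding protein gene, at 282 kb. Both windows overlapped no annotated gene. Of the ventral 22 h windows, 37.1% lay nearer to a start site than the Npy2r window and 54.3% nearer than the Nr1d2 window.

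Both windows sat in long stretches bounded by paired direct repeats, the layout of LTR retrotransposons, which are mobile elements that copy themselves through RNA. The Nr1d2 window was inside a stretch of 7103 bp (chr14:18972235-18979337) whose end repeats of 336 bp were 100% identical. It was wholly contained in an open frame of 618 codons on the minus strand, and of 2 frames of at least 600 codons within 8000 bp, 1 held the reverse transcriptase motif YXDD. The Npy2r window overlapped the right end repeat by 296 bp, in a stretch of 5420 bp (chr3:82393151-82398570) with end repeats of 366 bp at 99.2% identity. A 602-codon frame with YXDD lay within 8000 bp of the window, and whether it falls inside the stretch was not examined. Shares over the list used similar criteria, with the spacing measured from the end of the first repeat, not its start. Windows dense in short tandem repeats were not counted. In a stretch between paired direct repeats lay 54.0% of the 615 ventral windows higher at 22 h and 4.57% of the 197 lower ones.

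Copies were many. The Nr1d2 window matched 1347 places in mm9 over at least 80% of its length at 90% identity or more, 91 of them at 99% or more and 10 letter for letter, itself included. The Npy2r window matched 242 places, of which 1, itself, was at 99% or more. The median 31-base word occurred 416.5 times for Nr1d2 and 315.5 times for Npy2r. Both were below the median of 781 in the windows higher at 22 h. No word of 31 or 50 bases in either window occurred once. The read length is not given in the sources used here, and longer reads were not assessed. CpGs numbered 17 and 20, against a median of 28 in the windows higher at 22 h.

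Listed windows with sequence like these 2 were mostly higher at 22 h, as were 615 of all 812 windows of the list. At least 100 bp at 80% identity or more joined the Nr1d2 window to 41 others of the ventral 22 h list (5.05%), all 41 of which were higher at 22 h, with medians of 13.7 RPKM at 22 h and 2.29 RPKM at 24 h and a median ratio of 5.98 (1 window without reads at 24 h entered at a floor of 3 reads). The Npy2r window was joined to 25 others (3.08%), of which 23 were higher and 2 lower at 22 h, with a median ratio of 3.45. In the ventral 26 h list 1 window was like the Nr1d2 window, and it was lower, with 0.64 RPKM at 26 h against 7.65 RPKM at 24 h. In the dorsal 26 h list 1 window was like the Npy2r window, and it was higher at 26 h, with a ratio of 5.36. Since windows of shared sequence can draw on the same reads, they are not independent of each other.

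**Figure D4:**
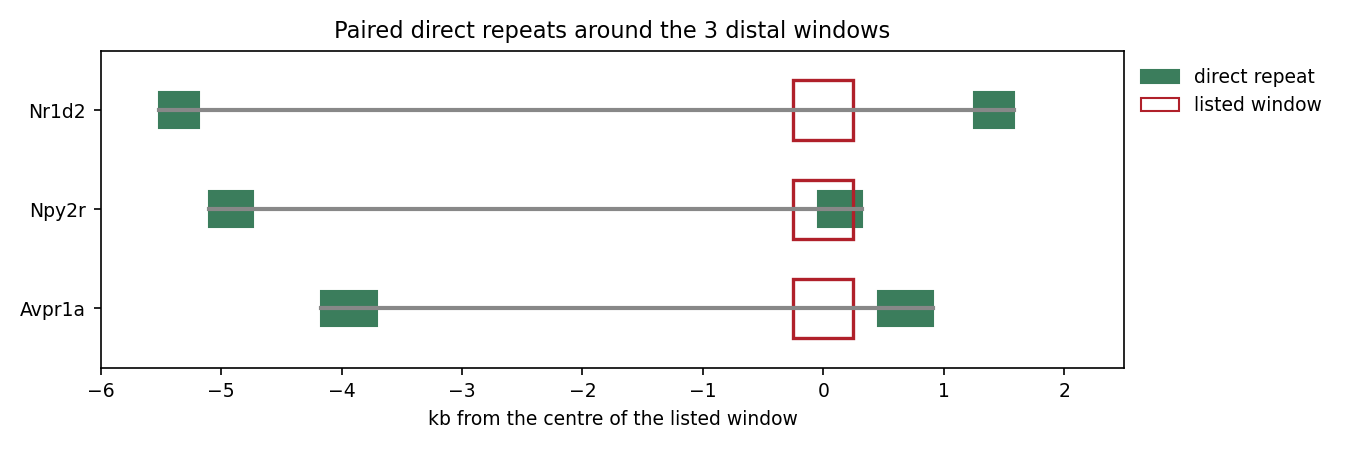
The stretches (grey lines) between paired direct repeats (green) around the windows nearest Nr1d2, Npy2r and Avpr1a (red boxes), in kb from the centre of each window. The stretches spanned 7103, 5420 and 5080 bp, and the Npy2r window reached into a repeat while the others lay between the repeats.

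The Avpr1a window carried less captured DNA after 26 h than after 24 h cycles in ventral SCN. At chr10:121744501-121745000 it had 1.48 RPKM at 26 h, against 11.5 RPKM at 24 h, from 7 and 30 reads, with more reads in the shallower column. It was 7.73-fold lower at 26 h (3.33 to 20.8). The authors' deposited table gives a log2 fold change of 2.40 for 24 h over 26 h with an unadjusted p of 2.47e-05. At least 2-fold lower at 26 h were 9.68% of the 217 windows of this list. The 3 windows most like it by value were nearest Spag9, a signalling scaffold gene, with 1.91 against 13 RPKM, Tmem121, with 1.06 against 10.7, and Zbtb10, a zinc finger gene, with 1.06 against 9.56.

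This window was the farthest of the 5 from its gene, 140.8 kb upstream of the Avpr1a start site (gene body chr10:121885555-121890509, plus strand), and 89.6% of the windows of the list with a distance lay nearer to theirs. The other flanking coding gene was Tmem5, with a start site at 210.3 kb. The window overlapped no annotated gene. A window 71 kb further from Avpr1a, nearest Gm4489, was listed in ventral SCN at 22 h with 2.45 RPKM, against 8.79 RPKM at 24 h.

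The Avpr1a window lay between paired direct repeats too, in a stretch of 5080 bp (chr10:121740584-121745663) with end repeats of 463 bp at 99.4% identity. No frame within 8000 bp reached 600 codons, and the longest had 535. Its end repeats aligned with those of the Nr1d2 stretch over 279 bp at 84.2% identity, and no alignment was found with those of the Npy2r stretch. In its list 15.5% of the 58 windows lower and 3.77% of the 159 higher at 26 h lay in such a stretch. With 8 CpGs it was the poorest in CpG of the 5, near the median of 7.5 of the windows lower at 26 h. It matched 675 places in mm9, and 10.4% of its 31-base words occurred once.

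No other window of the ventral 26 h list had sequence like the Avpr1a window. In the ventral 22 h list 20 windows did, all higher at 22 h, with medians of 17.7 RPKM at 22 h and 4.21 RPKM at 24 h. In dorsal SCN 1 such window was listed at 22 h, 4.2-fold higher than at 24 h, and 1 at 26 h, with 9.36 RPKM at 26 h against 1.75 RPKM at 24 h, the opposite direction to the Avpr1a window in ventral SCN. The ventral 22 h and 26 h lists share the 24 h column. Over all lists, 6 windows had sequence like both the Avpr1a and the Npy2r window. The dorsal 26 h window like Avpr1a had the same values as the one like Npy2r. The 2 mentions may be of the same window and cannot be read as separate observations.

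**Figure D5:**
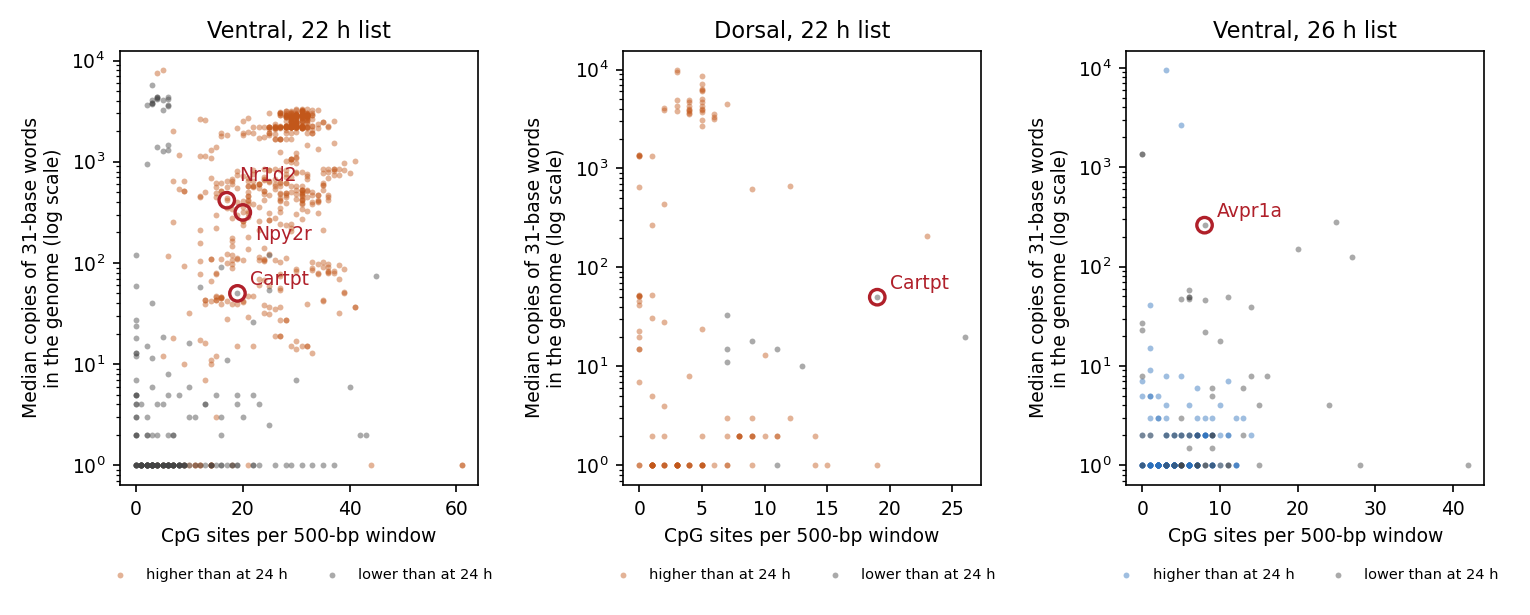
CpG sites per window against the median number of genomic copies of its 31-base words (log axis) for the windows of 3 lists, coloured by whether they were higher or lower than at 24 h, with the windows nearest the 4 genes circled. Nr1d2 and Npy2r are repeated and lie below the medians of the ventral windows higher at 22 h (28 CpGs, 781 copies). Cartpt has 19 CpGs and 50 copies in both parts.

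None of the other genes on the lists of clock, neuropeptide and neuropeptide receptor genes was named. Of 31 clock genes in the annotation, 1 (Nr1d2) was the nearest gene of a listed window in any of the 4 tables, or 3.23%. The same held for 1 of 25 neuropeptide genes (Cartpt, 4%) and 2 of 42 neuropeptide receptor genes (Avpr1a and Npy2r, 4.76%). Over all 22238 protein-coding genes, 2.73% were named, so these shares were close to the background. None of the 4 genes had a window in the dorsal 26 h list, and Cartpt alone had windows in both SCN parts. The E-box CACGTG, the site of CLOCK and BMAL1, was in none of the 5 windows on either strand, and in 6.40% of the ventral 22 h, 2.29% of the dorsal 22 h and 5.07% of the ventral 26 h windows. The half-site AGGTCA, to which REV-ERB proteins bind with a flanking sequence, was found once, in the Avpr1a window, and in 23.5% of the windows of that list (both strands).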

How the data were processed

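MeDIP-seq of ventral and dorsal SCN was deposited as 4 tables of selected 500-bp windows, each with 1 column per cycle length. Alignment used BWA and mm9, per the submitters' processing notes. The deposited columns named counts hold a rescaled score and were used only as an alternative. RPKM, per the file headers, was the value analysed. The log2 fold changes and unadjusted p-values are from edgeR, per the file headers, and distances to start sites are the authors' own. How samples were combined and windows selected is not given in the sources used here. The ventral 26 h list held 3 repeated windows, which were dropped.

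Reads were recovered as whole multiples of the RPKM of 1 read in each column (all values within 0.01 RPKM). Depth was 8170000, 5230000 and 9430000 reads at ventral 22, 24 and 26 h, and 5720000, 4580000 and 5770000 at dorsal 22, 24 and 26 h. Ratio intervals are exact (Clopper-Pearson, 95%) and level intervals exact Poisson; both cover counting error only, and PCR copies of a molecule may be among the reads. A column of 0 reads was set to a floor of 3 reads. Windows were placed in mm9 and GENCODE M1, words counted in the whole genome on both strands, and copies found with BLAST 2.17.0. The array was delimited by units with at most 2 mismatches. Read recovery and word counting were tested on simulated data. Named besides the 4 genes were the 3 windows of other genes with the nearest values per window, the flanking coding genes and listed genes of the clock and neuropeptide lists; Trpc7, Mir101c, 2610316D01Rik, AA545190 and Gm4489 were chosen after their values were seen. The 4 genes, the gene lists and the settings were chosen with earlier results of these data known. Scripts ran in Python 3.11.15 with scipy 1.17.1 for the intervals and samtools 1.23.1 for sequence.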

Additional observations from a re-analysis of the deposited data

How the results depend on the processing

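The 5 ratios kept their direction with the authors' scaling and with the deposited count columns. Adding 1 read or 0.5 RPKM to both columns could hardly turn a direction, and a minimum of 10 reads or summing listed neighbours left every ratio as it was, so these say nothing about stability. The ventral Cartpt ratio of 22 h over 24 h moved from 0.348 to 0.480 with the authors' scaling and 0.469 with the deposited count columns. The dorsal one became 0.520 with the authors' scaling, short of 2-fold, and 0.45 with the deposited count columns, past 2-fold. With words of 50 bases, the share of words that occur once became 22.4% for the ventral Cartpt window, 5.32% for the dorsal one and 18.2% for Avpr1a. The nearest Nr1d2 transcript start lay at 66365 bp. Among mostly unique windows (at least 50% of 31-base words once), 10.8% of the ventral 22 h list were at least 2-fold higher and 85.4% at least 2-fold lower at 22 h. At least 1.5-fold lower at 26 h were 23.5% of the ventral windows, and 20.9% were 2-fold lower with neighbours merged. At least 3-fold lower in the dorsal 22 h list were 0.763%, which leaves Cartpt out. The nearest start site in the annotation named the same genes of the 3 gene lists. No paired analysis was possible because each table holds 1 column per cycle length, and for the same reason no replicate could be left out. Depth limits the Nr1d2 and Npy2r folds, which rest on 4 reads at 24 h.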
